A study of Homo sapiens with 12 samples.

Results

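The circadian clock genes PER1, PER2, PER3, CRY1, CRY2, NR1D1, NR1D2, BHLHE40, DBP and TEF were followed in HCC38 cells treated with erastin and tubacin. The 10 genes were taken by their symbols from the annotation of the array, using probe sets that carry exactly 1 symbol and, for a gene with several, the brightest on average over the 12 samples. Of the 10 genes 9 had such a probe set, among 22392 genes in all. NR1D1 lies only on probe sets that also carry the symbol of another gene (2 of 2), so no value is given for it.

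The 12 samples, each hybridised to a Human Gene 2.1 ST array, formed 4 groups of 3: 5 µM erastin plus 5 µM tubacin (E + T), 5 µM erastin, 5 µM tubacin, and DMSO as the control. Erastin blocks cystine import, and tubacin inhibits the deacetylase HDAC6. The labels give 18 h for every group, whereas the methods of the study give a longer time. HCC38 is an established triple-negative breast cancer line with no modification stated here. The titles and the cell line entries name HCC38 for all samples, but the source entries carry a rising line number from sample to sample, and all samples were taken as HCC38. Nothing in the labels ties the 3 samples of a group to separate cultures, and the p-values therefore reflect the spread among these samples only, possibly a technical one. Each treatment was sampled at a single time, so a change of level and a shift of clock phase cannot be told apart, and neither can less RNA per cell and fewer cells of one kind.

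The clock is a feedback loop. CLOCK (or NPAS2) and BMAL1 pair up and switch on PER, CRY and NR1D genes through E-boxes, and the PER and CRY proteins return to block that pair. In a second loop the NR1D receptors repress and the ROR receptors activate BMAL1 through sites called RREs. BHLHE40 binds E-boxes as a repressor, and DBP and TEF carry the rhythm to output genes through D-boxes, where NFIL3 competes with them.

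The promoters of 5 of the 6 clock genes that changed with E + T show which of these elements stand near their starts. The promoter of CRY1 is not printed. Each window runs from 250 bases before to 50 bases after a RefSeq transcript start (GRCh38.p14), 5′ to 3′ on the gene's own strand, and for NR1D2, CRY2 and PER3, which have 2 starts in the table, the window with the most elements was taken (the later one for CRY2, where both hold as many). Capitals mark the E-box CACGTG, the D-box TTATGTAA or TTACGTAA, and the RRE core AGGTCA, on either strand. No other capitals occur.
NR1D2 (chr3:23945871-23946170, plus strand): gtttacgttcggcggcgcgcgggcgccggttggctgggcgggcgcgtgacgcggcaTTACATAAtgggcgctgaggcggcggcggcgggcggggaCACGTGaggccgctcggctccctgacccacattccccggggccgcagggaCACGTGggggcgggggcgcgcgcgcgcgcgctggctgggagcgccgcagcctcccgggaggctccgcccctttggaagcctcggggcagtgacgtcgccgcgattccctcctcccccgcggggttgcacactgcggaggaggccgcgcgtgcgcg
BHLHE40 (chr3:4979187-4979486, plus strand): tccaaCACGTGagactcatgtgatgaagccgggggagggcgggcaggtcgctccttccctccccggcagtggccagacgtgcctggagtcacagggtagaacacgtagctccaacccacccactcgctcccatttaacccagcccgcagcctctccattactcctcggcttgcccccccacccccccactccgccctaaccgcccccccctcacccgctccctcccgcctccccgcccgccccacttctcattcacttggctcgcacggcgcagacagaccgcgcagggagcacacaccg
CRY2 (chr11:45847225-45847524, plus strand): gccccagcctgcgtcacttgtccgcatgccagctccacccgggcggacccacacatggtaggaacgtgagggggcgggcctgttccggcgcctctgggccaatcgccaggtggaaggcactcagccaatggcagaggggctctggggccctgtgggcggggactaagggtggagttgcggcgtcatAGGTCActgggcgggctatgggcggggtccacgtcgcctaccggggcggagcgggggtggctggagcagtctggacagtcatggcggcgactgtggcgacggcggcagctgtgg
PER2 (chr2:238288561-238288860, minus strand): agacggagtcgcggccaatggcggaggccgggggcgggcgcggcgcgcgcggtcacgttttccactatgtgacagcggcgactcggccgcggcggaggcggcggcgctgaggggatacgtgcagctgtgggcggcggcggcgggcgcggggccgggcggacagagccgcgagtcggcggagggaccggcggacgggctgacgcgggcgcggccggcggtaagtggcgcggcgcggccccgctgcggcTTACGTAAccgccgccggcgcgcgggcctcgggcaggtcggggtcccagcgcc
PER3 (chr1:7784041-7784340, plus strand): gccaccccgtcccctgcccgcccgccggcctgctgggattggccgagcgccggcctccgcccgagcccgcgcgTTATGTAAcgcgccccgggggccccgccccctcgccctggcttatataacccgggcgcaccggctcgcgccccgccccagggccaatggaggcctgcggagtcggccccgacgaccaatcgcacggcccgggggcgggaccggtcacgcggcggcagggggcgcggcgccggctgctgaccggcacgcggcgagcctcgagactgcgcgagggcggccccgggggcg

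The NR1D2 window holds 2 E-boxes and 1 D-box, the last read on the opposite strand as TTACATAA. The BHLHE40 window holds 1 E-box, the PER2 and PER3 windows 1 D-box each, and the CRY2 window 1 RRE core. The CRY1 window, not printed, holds 0 E-boxes, 0 D-boxes and 0 RRE cores. Over the 14 windows of the 10 clock genes, an E-box stood in 5, a D-box in 3 and an RRE core in 3. Among 35116 RefSeq windows of the same length the shares were 7.26% for the E-box, 1.01% for the D-box and 13.8% for the RRE core. The cyclic AMP element TGACGTCA (1.85% of windows) and the ATF4 core TGATGNAA (3.62%) stood in 0 of the 14, and the shorter element TGACG, which is part of the full one and is not capitalised, in 6 windows of 4 genes (24.6% of all windows). These matches are letters in a window and were not tested for binding.

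Array medians lay between 3.06 and 3.12 on the log2 scale, and the correlation between samples over all probe sets was 0.982 to 0.988 within a group and 0.971 to 0.986 between groups. All 10 epithelial markers looked up were measured, with means of 4.77 to 10.7. Of the leukocyte markers 5 of 6 averaged under 3, as did 4 of 4 endothelial markers. The estrogen receptor gene ESR1 averaged 2.18, and PGR, the other receptor gene measured, averaged 3.72, above the array medians. Several of these markers moved with E + T: 5 epithelial genes, CDH1 among them, were higher (mean level of the list 8.83 to 8.93 in the E + T samples and 8.55 to 8.60 in the control samples), and of 6 fibroblast genes 3 were lower (COL1A1, COL1A2, LUM) and 1 was higher (PDGFRB). The mean level of the fibroblast list was 4.94 to 5.00 in the E + T samples and 5.16 to 5.26 in the control samples. Of these 6 genes 2 averaged under 3, and the gene means ran from 1.64 (DCN) to 8.88 (COL1A1). The leukocyte list had 1 lower gene (CD14), with a mean level of 2.31 to 2.46 in the E + T samples and 2.49 to 2.63 in the control samples. Their part in the clock gene results was not tested.

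Erastin plus tubacin raised NR1D2, CRY2, BHLHE40 and PER2 and lowered PER3 and CRY1, against the control, as RMA had scaled the arrays. Scaled to ACTB, all 9 measured genes passed and were higher, beside 20409 of all 22392 genes that passed, 20348 of them higher. ACTB, a common reference gene, averaged 6.12 in the control samples, below the 6 reference genes used for another scaling (6.31 to 9.25). ACTB itself fell by 1.19 with E + T (adjusted p 0.00131). In the values as deposited, 6 of the 9 measured clock genes passed the test (limma, adjusted p under 0.05 over all genes), 4 higher and 2 lower. PER1, DBP and TEF did not. The change under ACTB scaling was 1.21 for PER1, 1.37 for DBP and 1.29 for TEF. Scaled to the 6 reference genes 4 of the 9 passed, all higher, beside 6371 of all 22392 genes, 3458 of them higher. Of the 6, PPIA (-0.59) and HPRT1 (-0.35) fell with E + T, and PGK1 (0.57) and GAPDH (0.21) rose. Each of these passed (adjusted p 0.000135 to 0.0370), whereas TBP and GUSB did not. As deposited, 31.1% of all genes passed, 14% higher and 17.1% lower. The median change of the 9 genes was 0.17 on the log2 scale, beside -0.01 for all genes.

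**Figure D1:**
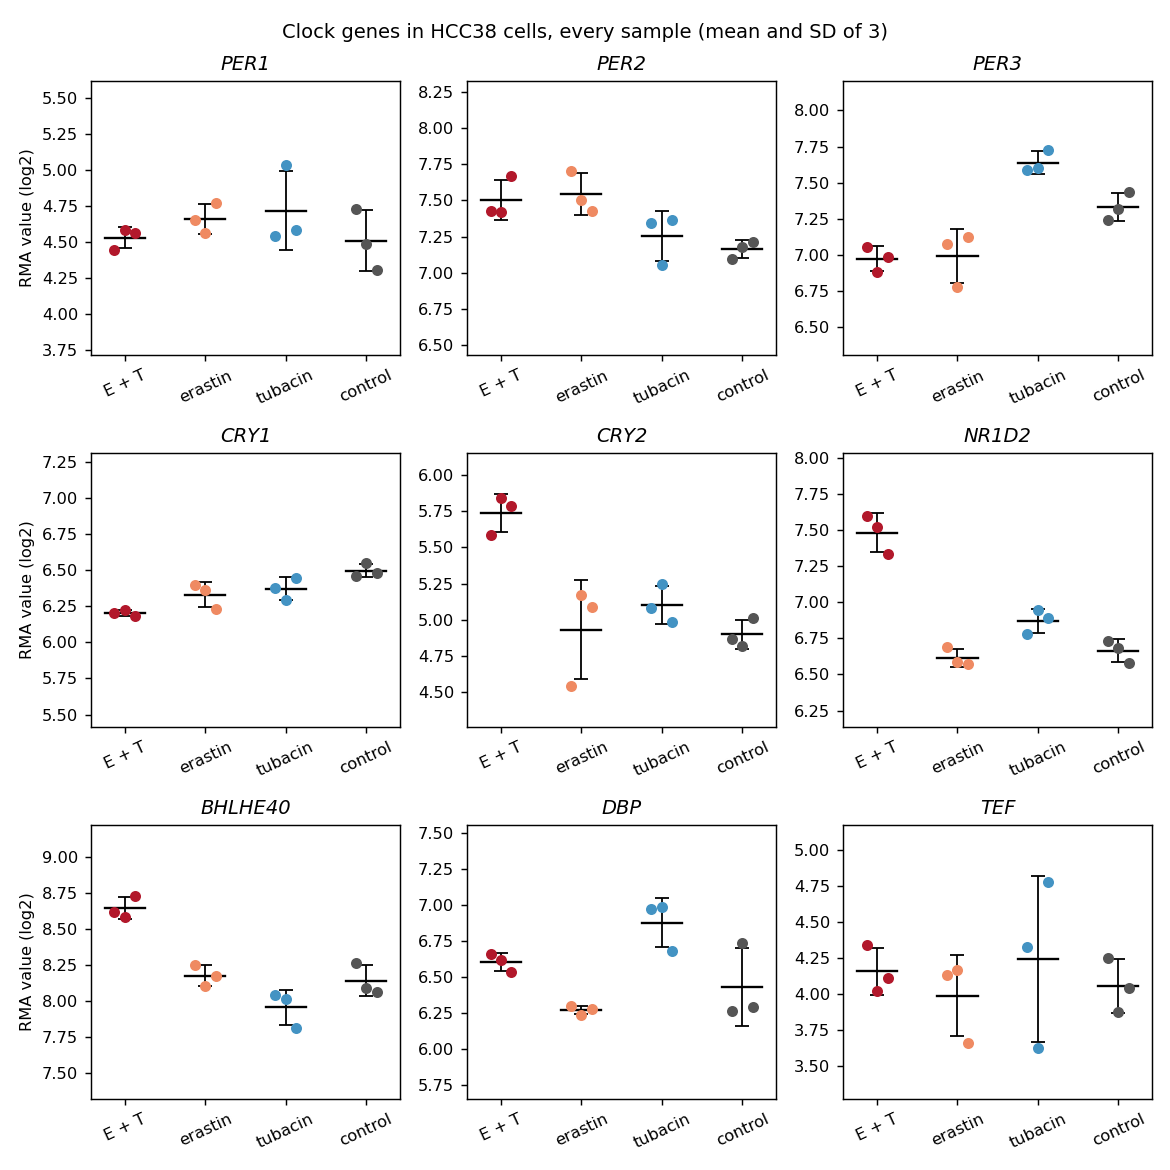
RMA value (log2) of each measured clock gene in every sample of the 4 groups; points are samples, and lines and bars are the mean and SD of 3 samples; every panel spans the same range of log2 units. The 3 E + T samples stood above all other samples for NR1D2 (7.33 or more), BHLHE40 (8.58 or more) and CRY2 (5.59 or more), and below all others for CRY1 (6.22 or less). The share of all genes whose E + T samples stood apart in this way is not given here.

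NR1D2 encodes REV-ERB beta, a nuclear receptor that represses BMAL1 and other RRE genes. Its log2 values were 7.59, 7.52 and 7.33 in the E + T samples, 6.69, 6.59 and 6.57 with erastin, 6.78, 6.94 and 6.89 with tubacin, and 6.73, 6.68 and 6.58 in the control samples. The E + T samples did not overlap any other group, and the erastin samples overlapped the control samples. Here and below, overlap describes the samples of a gene, and the share of all genes without overlap is not given. The change with E + T was 0.82 ± 0.09 (SE), 1.76-fold, with an adjusted p of 3.76e-05.

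CRY2 encodes a cryptochrome, which blocks the CLOCK pair together with PER. Its values were 5.59, 5.84 and 5.79 with E + T, 4.54, 5.17 and 5.09 with erastin, 5.08, 5.25 and 4.98 with tubacin, and 4.86, 4.82 and 5.01 in the control samples. The E + T samples again lay above all others, and the first erastin sample was the lowest of the 12. The change with E + T was 0.84 ± 0.15, 1.79-fold (adjusted p 0.00156). A second CRY2 probe set, dim with a mean of 2.15, changed by -0.03, and the mean of both probe sets gave 0.41 (adjusted p 0.0619), which did not pass.

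CRY1, the other cryptochrome gene, ran the opposite way in the values as deposited (0.90 when scaled to ACTB). Its values were 6.21, 6.22 and 6.18 with E + T, 6.40, 6.36 and 6.23 with erastin, 6.38, 6.29 and 6.45 with tubacin, and 6.46, 6.55 and 6.48 in the control samples. The E + T samples were below every other sample, by little for the third erastin sample. The change with E + T was -0.29 ± 0.07, 1.23-fold lower (adjusted p 0.00933), and it did not pass when the arrays were scaled to 6 reference genes (-0.22, adjusted p 0.108).

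BHLHE40 encodes a repressor that acts at E-boxes and responds to many stresses. Its values were 8.61, 8.58 and 8.73 with E + T, 8.25, 8.10 and 8.17 with erastin, 8.04, 8.01 and 7.81 with tubacin, and 8.26, 8.09 and 8.07 in the control samples. Only the E + T samples stood apart from the control range on the high side, and all 3 tubacin samples lay below it. The change with E + T was 0.50 ± 0.09, 1.42-fold (adjusted p 0.00122).

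PER2 and PER3, period genes whose proteins carry the negative arm of the loop, moved in opposite directions in the values as deposited (PER3 came to 0.83 when scaled to ACTB). PER2 had values of 7.42, 7.42 and 7.67 with E + T, 7.70, 7.50 and 7.42 with erastin, 7.35, 7.05 and 7.36 with tubacin, and 7.09, 7.18 and 7.21 in the control samples. The E + T and erastin samples overlapped each other and lay above all control samples. The PER2 change with E + T was 0.34 ± 0.11, 1.27-fold (adjusted p 0.0400). It no longer passed without any one of the E + T or control samples or without erastin replicate 2 (adjusted p 0.0529 to 0.140), with every probe set tested (0.0858), with only these 2 groups in the fit (0.0557) or by the methods' t-test, adjusted (0.0733).

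PER3 had values of 7.05, 6.88 and 6.99 with E + T, 7.07, 6.78 and 7.12 with erastin, 7.59, 7.60 and 7.73 with tubacin, and 7.24, 7.32 and 7.44 in the control samples. The E + T and erastin samples all lay below the control samples and the tubacin samples all above them. The change with E + T was -0.36 ± 0.10, 1.28-fold lower (adjusted p 0.0204). It did not pass without E + T replicate 2 (-0.31, adjusted p 0.0741), without control replicate 3 (-0.31, adjusted p 0.0733) or with scaling to the 6 reference genes (-0.29, adjusted p 0.106), and with every probe set tested its adjusted p was 0.0504.

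PER1, the third period gene, and TEF and DBP, factors that bind D-boxes, did not pass with E + T. PER1 had values of 4.44 to 4.58 with E + T, 4.56 to 4.77 with erastin, 4.54 to 5.03 with tubacin and 4.31 to 4.73 in the control samples, with a change for E + T of 0.02 and a 95% confidence interval of -0.30 to 0.34. TEF ranged over 4.02 to 4.34 with E + T, 3.66 to 4.17 with erastin, 3.63 to 4.77 with tubacin and 3.87 to 4.25 in the control samples, and its interval was -0.45 to 0.66. Both genes had means under 5 and overlapped between all groups. DBP had values of 6.66, 6.62 and 6.54 with E + T, 6.30, 6.24 and 6.28 with erastin, 6.97, 6.98 and 6.68 with tubacin, and 6.26, 6.74 and 6.29 in the control samples. Control replicate 2 stood apart from the other control samples for DBP. Its change with E + T was 0.17 (interval -0.11 to 0.46), and without that sample it was 0.33 and passed (adjusted p 0.0368).

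**Figure D2:**
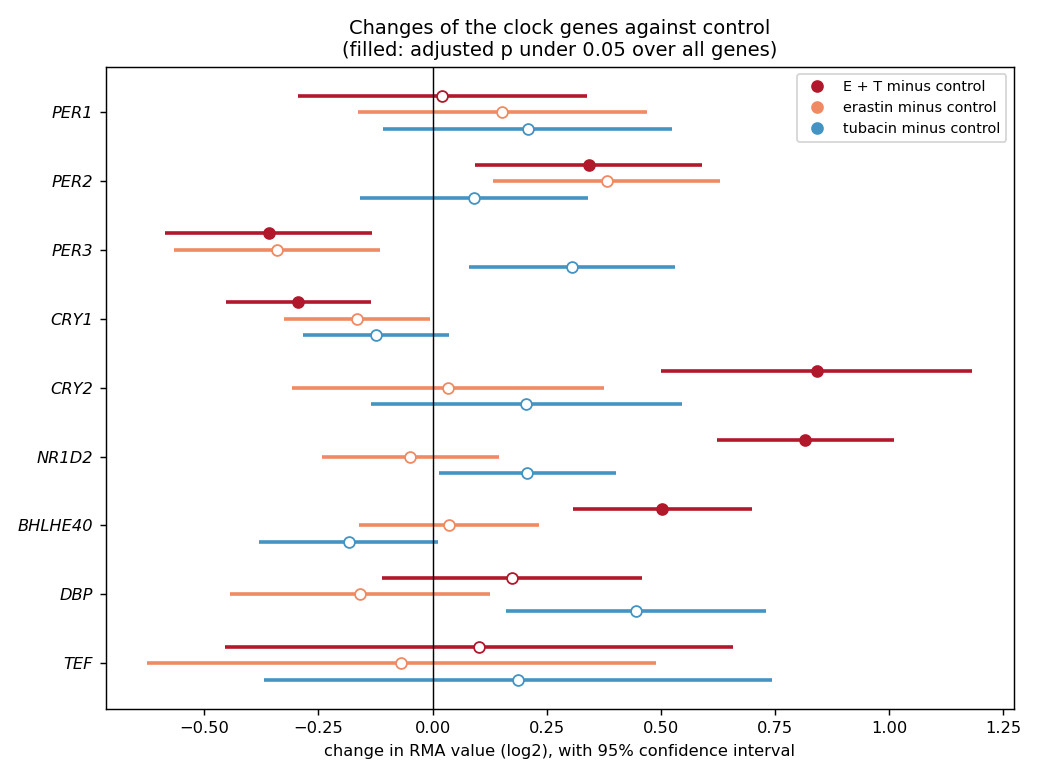
Change of each clock gene (log2) against control with its 95% confidence interval, for E + T, erastin and tubacin, drawn in that order from top to bottom for each gene; filled points passed the test over all genes. With E + T 6 of 9 genes passed, 4 above and 2 below 0 (PER3 and CRY1 turned positive, at 0.83 and 0.90, when arrays were scaled to ACTB), and with either drug alone 0 of 9.

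Neither drug alone moved any of the 9 genes past the threshold. With erastin 0 of the 9 passed, where 8.35% of all genes did, and 3 of the 9 had an unadjusted p under 0.05, beside 21.6% of all genes. PER2 differed from control by 0.38 ± 0.11 (adjusted p 0.0664), PER3 by -0.34 ± 0.10 (adjusted p 0.0702) and CRY1 by -0.17 ± 0.07 (adjusted p 0.212). PER2 and PER3 passed when genes with a mean under 5 were left out (adjusted p 0.0178 and 0.0185) or with trend and robust moderation (0.0207 and 0.0267), and PER2 without tubacin replicate 2 (0.0488). The 3 genes that rose most with E + T were near 0 with erastin: NR1D2 at -0.05 (interval -0.24 to 0.15), CRY2 at 0.03 (-0.31 to 0.37) and BHLHE40 at 0.04 (-0.16 to 0.23).

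With tubacin 0 of the 9 passed, where 0.232% of all genes did, and 3 had an unadjusted p under 0.05, beside 10.2% of all genes. DBP differed from control by 0.45 ± 0.13 (adjusted p 0.257), PER3 by 0.31 ± 0.10 (adjusted p 0.339) and NR1D2 by 0.21 ± 0.09 (adjusted p 0.454). The PER3 samples did not overlap between tubacin and control, nor did those of NR1D2, whereas those of DBP did. The share of all genes without such overlap is not given here, and neither gene passed. The methods' t-test without adjustment passed 2 of the 9 with tubacin, beside 8.98% of all genes, and 3 of the 9 with erastin, beside 18.8%.

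Set against each drug alone, the combination had higher NR1D2, CRY2 and BHLHE40. Against erastin, 3 of the 9 passed, all higher, beside 25.8% of all genes: NR1D2 by 0.87 ± 0.09 (adjusted p 3.89e-05), CRY2 by 0.81 ± 0.15 (0.00260) and BHLHE40 by 0.47 ± 0.09 (0.00253). PER2 and PER3 differed between E + T and erastin by -0.04 (interval -0.29 to 0.21) and -0.02 (-0.25 to 0.21). DBP differed by 0.33 ± 0.13 (adjusted p 0.0868) and did not pass. It did without control replicate 2 (0.0229), without genes whose mean was under 5 (0.0309) and with only these 2 groups in the fit (0.0220). By the methods' t-test, adjusted, it passed too (0.0128).

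Against tubacin, 4 of the 9 passed, beside 28.2% of all genes. BHLHE40 was higher by 0.69 ± 0.09 (adjusted p 0.000161), CRY2 by 0.64 ± 0.15 (0.00925) and NR1D2 by 0.61 ± 0.09 (0.000339), and PER3 was lower, with a change of -0.66 ± 0.10 (0.000541), 1.59-fold. These 2 comparisons and the one with control share the E + T samples, so they are not independent of each other. With the mean of its 2 probe sets, CRY2 passed in neither of them (0.39, adjusted p 0.0857, against erastin, and 0.27, adjusted p 0.228, against tubacin).

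The interaction, by which the change with E + T departs from the 2 single-drug changes added together, passed for 2 of the 9 clock genes, NR1D2 and BHLHE40, beside 15% of all genes. For NR1D2 the change with E + T was 0.82 and the sum of the single changes 0.16, an interaction of 0.66 ± 0.12 (adjusted p 0.00474). For BHLHE40 the 2 values were 0.50 and -0.15, an interaction of 0.65 ± 0.13 (adjusted p 0.00546). CRY2 had a like value with a wider error, 0.60 ± 0.22, and did not pass (adjusted p 0.0950). It did pass when genes with a mean under 5 were left out (adjusted p 0.0331). Over all alternatives run, the CRY2 interaction fell as low as 0.25, and its adjusted p rose as high as 0.512. For CRY1 the changes added up almost exactly, -0.29 with E + T against a sum of -0.29, with an interval for the interaction of -0.23 to 0.22. For PER2 the interaction was -0.13 (interval -0.48 to 0.22) and for PER3 -0.32 (-0.64 to -0.0049, adjusted p 0.176).

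**Figure D3:**
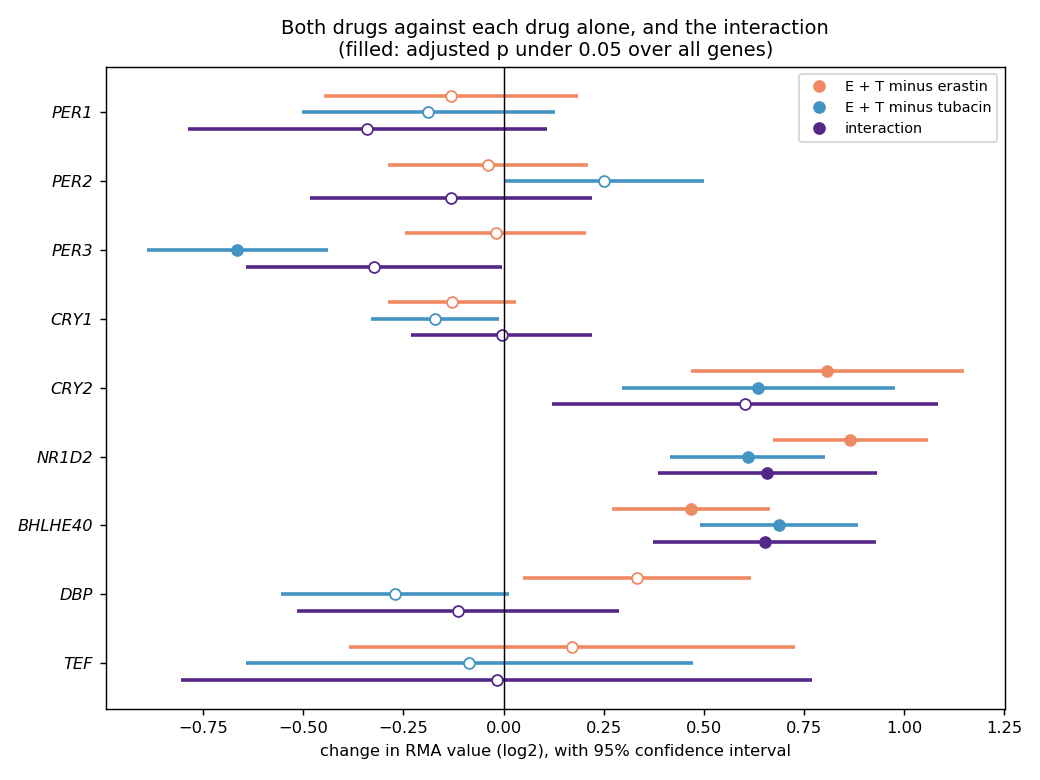
Difference of each clock gene (log2) with its 95% confidence interval between E + T and erastin, between E + T and tubacin, and for the interaction, drawn in that order from top to bottom for each gene; filled points passed the test over all genes. NR1D2 and BHLHE40 passed in all 3, CRY2 in both differences, and PER3 only against tubacin (-0.66, which became 0.35 when arrays were scaled to ACTB).

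For the groups of other clock genes that follow, the share of all genes that passed with E + T was 31.1%. Among the activators of the loop, 3 of 4 measured genes passed with E + T. BMAL1, the partner of CLOCK and a target of NR1D2, had 6.49, 6.61 and 6.52 with E + T, 6.57, 6.24 and 6.17 with erastin, 6.01, 6.17 and 5.90 with tubacin and 6.18, 6.10 and 6.08 in the control samples, a rise of 0.42 ± 0.11 (adjusted p 0.0130). Its paralog BMAL2, at 7.08 to 7.21 in the E + T samples and 7.66 to 7.91 in the control samples, fell by 0.64 (SE 0.10, adjusted p 0.000546). A second, dim BMAL2 probe set changed by 0.01, and the mean of both gave -0.32 (adjusted p 0.0293). Scaled to ACTB, the BMAL2 change was 0.55 and that of CLOCK 0.95. As deposited, CLOCK fell by 0.24 (SE 0.07, adjusted p 0.0222), a call lost without E + T replicate 2 or 3 or control replicate 3 (adjusted p 0.0659 to 0.0807). The CLOCK paralog NPAS2 differed by 0.12 and did not pass.

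The second loop also held a ROR gene with higher values. RORA, which activates BMAL1, had 4.26, 4.83 and 3.96 with E + T, 3.23, 3.20 and 3.71 with erastin, 2.74, 3.12 and 3.34 with tubacin and 2.54, 3.21 and 2.97 in the control samples. All E + T samples exceeded every other sample, with a difference of 1.45 ± 0.26 (adjusted p 0.00123, and 0.0512 by the methods' t-test, adjusted). The control mean of 2.90 lay below the array medians and no detection calls were used, so the difference is between values on a dim probe set and not an exact fold. RORB differed by -0.04.

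Of 5 further repressors and D-box factors, 2 rose and 2 fell with E + T. CIART, a repressor of the CLOCK pair, had 6.76, 6.94 and 7.00 with E + T, 5.78, 6.11 and 5.97 with erastin, 6.16, 6.42 and 5.92 with tubacin and 5.47, 5.45 and 5.26 in the control samples. All 9 treated samples lay above the control samples. The change was 1.50 ± 0.14 with E + T (adjusted p 1.12e-05), 0.56 ± 0.14 with erastin (adjusted p 0.0309) and 0.77 ± 0.14 with tubacin (adjusted p 0.0595), and the interaction was 0.18 (interval -0.25 to 0.60).

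NFIL3, the repressor at D-boxes, had 8.76, 8.69 and 8.78 with E + T, 7.43, 7.51 and 7.44 with erastin, 7.05, 7.05 and 7.17 with tubacin and 7.44, 7.31 and 7.39 in the control samples. It rose with E + T by 1.36 ± 0.07 (adjusted p 2.44e-07), beside changes of 0.08 with erastin and -0.29 with tubacin that did not pass, with an interaction of 1.57 ± 0.10 (adjusted p 1.07e-05). HLF, which activates at D-boxes, differed by -0.14 and did not pass.

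TIMELESS, which acts at replication forks and has a less settled part in the mammalian clock, had 8.35, 8.18 and 8.35 with E + T, 9.07, 9.07 and 8.99 with erastin, 9.29, 9.19 and 9.19 with tubacin and 9.32, 9.31 and 9.29 in the control samples. It fell by 1.02 with E + T (SE 0.07, adjusted p 1.87e-06) and by 0.26 with erastin (adjusted p 0.0483), with an interaction of -0.67 ± 0.10 (adjusted p 0.00133). BHLHE41, the paralog of BHLHE40, fell by 0.47 with E + T (SE 0.08, adjusted p 0.000765) and by 0.41 with erastin (adjusted p 0.00892), so that the paralogs moved in opposite directions with E + T, which scaling to ACTB turned (0.72 for BHLHE41). TIMELESS came to 0.18 under that scaling.

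Of 7 genes listed for the kinases and ubiquitin ligases that act on PER and CRY proteins, 3 kinase genes passed with E + T, all higher. FBXL21P, listed with the ligases, also passed and was lower. GSK3B rose by 0.52 ± 0.07 (adjusted p 0.000266), CSNK1A1 by 0.43 ± 0.12 (0.0200) and CSNK1D by 0.22 ± 0.07 (0.0400), while CSNK1E differed by -0.12 and the ligase genes BTRC and FBXW11 by 0.02 and 0.18 without passing. The CSNK1A1 call was lost without E + T replicate 2 (adjusted p 0.0697), with only the compared groups in the fit (0.0760) and by the methods' t-test (0.0513, and 0.152 adjusted), and without control replicate 1 the change was 0.28 (adjusted p 0.0448). That of CSNK1D was lost without any one sample other than E + T replicate 1 and control replicate 2 (0.0508 to 0.140), with every probe set (0.105), with only the compared groups (0.152) and by the adjusted t-test (0.126). FBXL21P, annotated as a pseudogene, had 2.13 to 2.30 in the E + T samples and 3.61 to 4.29 in the control samples, a difference of -1.67 (SE 0.24, adjusted p 0.000351). With erastin it fell as well (-1.29, adjusted p 0.0095), and E + T against erastin did not pass (-0.38, adjusted p 0.318). Its E + T values and its erastin mean of 2.62 lay below the array medians, so these sizes are not exact. Scaled to ACTB, the change with E + T was -0.48 and did not pass (adjusted p 0.120).

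Of 6 output genes, 1 rose and 2 fell with E + T. NAMPT, the enzyme of NAD salvage, rose by 0.88 ± 0.18 (adjusted p 0.00299), an inexact size since its control mean of 3.04 was below the array medians. USP2, a ubiquitin protease, fell by 0.92 (SE 0.09, adjusted p 2.51e-05) and with erastin by 0.53 (adjusted p 0.00637), and its interaction of -0.46 ± 0.13 (adjusted p 0.0403) was lost without any one sample other than erastin replicate 3, tubacin replicate 2 and control replicate 3 (adjusted p 0.0538 to 0.0959). It was lost too with every probe set (0.108), quantile (0.0814) or loess (0.0768) normalization, the reference genes (0.0552) and trend and robust moderation (0.132). KLF10, a transcription factor, fell by 0.53 (SE 0.09, adjusted p 0.000647), and NOCT, WEE1 and ALAS1 did not pass.

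**Figure D4:**
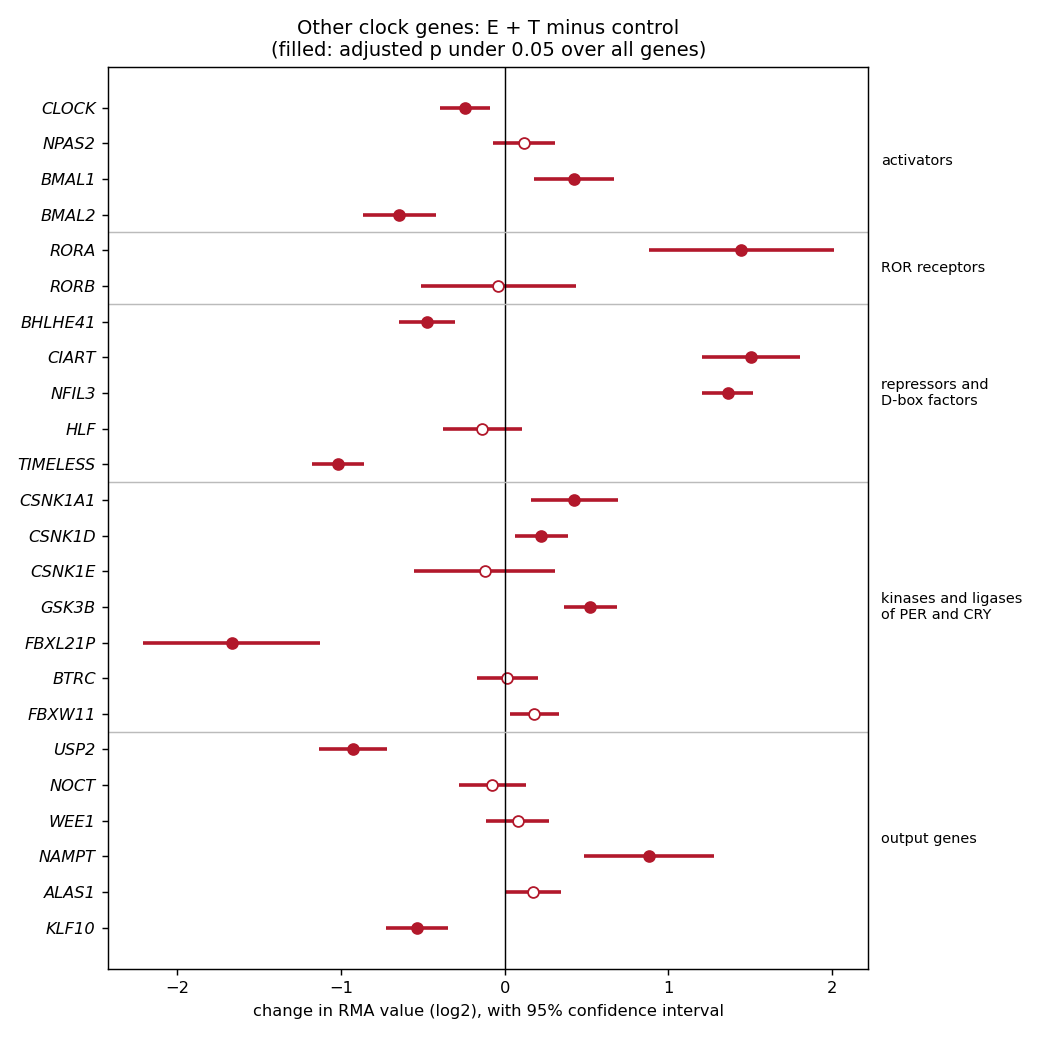
Change (log2) of 24 other clock genes with E + T against control, with the 95% confidence interval, grouped by role; filled points passed the test over all genes. CIART lay at 1.50 and NFIL3 at 1.36, TIMELESS at -1.02 and USP2 at -0.92, the sizes for RORA, NAMPT and FBXL21P rest on dim values, and of those that passed below 0, BMAL2, BHLHE41, CLOCK, TIMELESS, USP2 and KLF10 turned positive when arrays were scaled to ACTB, while FBXL21P stayed negative without passing.

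In all, 15 of these 24 other clock genes passed with E + T, 8 higher and 7 lower, beside 31.1% of all genes (14% higher and 17.1% lower), with a median change of 0.05. With erastin 5 of the 24 passed, 1 higher and 4 lower, beside 8.35% of all genes. With tubacin 0 of the 24 passed, beside 0.232% of all genes, and 4 had an unadjusted p under 0.05, beside 10.2%. The interaction passed for 3 of the 24, beside 15% of all genes.

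For each clock gene that passed with E + T, the 3 genes most like it were taken by Pearson's r over the 12 samples, as a description in which the treatment groups set much of r. AP1G1 (r = 0.985), ITGA5 and KCTD6 were most like NR1D2. ARAP1 (0.968), GPNMB and MAPT were most like CRY2, and TUBA1A (0.973), LRRC8A and PNPLA8 most like BHLHE40. WWTR1-AS1 (0.955), TRIP11 and PRKAR1A followed PER2, MYLIP (0.951), SERPINB7 and SYT16 followed PER3, and LAPTM4B (0.955), SAMD11 and SRRD followed CRY1. None of the other clock genes was among them.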

How the data were processed

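RMA, run by the authors, gave the deposited log2 values. The version of RMA and the genome build are not given in the sources used here. Of 53617 probe sets, 23866 carry exactly 1 symbol in the annotation, 1852 carry several and were left out, and 27899 are not listed. For 630 genes with several probe sets the brightest was taken. The deposited log2 values were fitted in R 4.3.3 with limma 3.58.1, as 4 group means with eBayes moderation and no filter on dim genes. Benjamini-Hochberg adjustment of the p-values was over 22392 genes in each of 6 comparisons, two-sided, with a threshold of 0.05. The fit was tested on simulated data. No detection calls were used, and the number of arrays limits the precision.

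The clock genes and all lists were chosen with earlier results of these data known. The text names the 10 clock genes, the activators of a list of 24 other measured clock genes, those of that list that passed with E + T or in the interaction, and the 3 genes most like each clock gene that passed. Further genes are named as values beside these. FBXL21 is listed as FBXL21P in the annotation. Some items are not reported here. Reference genes were 6 of 10 listed ones. Promoter sequences are from RefSeq (GRCh38.p14) and were matched by symbol for all 10 clock genes. Drawing used Python 3.11.15 and matplotlib 3.10.9.

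The alternatives were: every probe set, averaging the probe sets of a gene, leaving out genes with a mean under 5, a further quantile or cyclic loess normalization, scaling to ACTB or to the reference genes, trend and robust moderation, only the compared groups in the fit, the replicate number as a block, the methods' t-test, adjusted or not, a threshold of 0.01, and dropping each sample in turn.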

Additional observations from a re-analysis of the deposited data

Results flagged for a closer look

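For NR1D2 and BHLHE40 the effect of tubacin differed between cells with and without erastin by a test of the difference itself, the interaction in limma. For NR1D2 tubacin gave 0.87 on the log2 scale with erastin and 0.21 without it, a difference of 0.66 (SE 0.12, adjusted p 0.00474). For BHLHE40 the values were 0.47 with erastin and -0.18 without it, a difference of 0.65 (SE 0.13, adjusted p 0.00546).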

How the results depend on the processing

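For the 9 clock genes, 616 of 663 values under alternatives other than leaving out samples kept their side of the threshold (19 changed sign without passing), 13 lost it, 23 gained it and 11 reversed. Leaving out each sample gave 648 values, 636 kept (30 changed sign without passing), 9 lost, 3 gained and 0 reversed. The NR1D2 and BHLHE40 calls with E + T against control and in the interaction were kept under every alternative run.

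All reversals came with scaling to ACTB, which fell by 1.19 with E + T and moved the median of all genes by 1.19 for E + T against control, 0.10 for erastin, 0.18 for tubacin, 1.09 against erastin, 1.01 against tubacin and 0.91 in the interaction. The reference genes moved it by 0.07, 0.04, 0.11, 0.03, -0.05 and -0.08, and quantile and loess normalization by at most 0.04. Scaled to ACTB, the changes with E + T against control became 0.83 for PER3, 0.90 for CRY1, 0.95 for CLOCK, 0.55 for BMAL2, 0.72 for BHLHE41, 0.18 for TIMELESS, 0.27 for USP2 and 0.66 for KLF10. Against erastin they became 0.96 for PER1, 1.05 for PER2, 1.07 for PER3 and 0.96 for CRY1, and against tubacin 0.82 for PER1, 0.35 for PER3, 0.84 for CRY1, 0.74 for DBP and 0.93 for TEF. The interaction became 0.24 for TIMELESS and 0.45 for USP2.

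The count of clock genes passing with E + T was 9 scaled to ACTB, all higher, instead of 6. It was 4 with the reference genes or every probe set and 4 to 6 leaving out samples (6083 to 6782 of all genes). With erastin, instead of 0, it was 2 without dim genes or with trend and robust moderation (all-gene counts not given). It was 3 by the unadjusted t-test and 0 to 1 leaving out samples. With tubacin it was 2 by that t-test, instead of 0. Scaled to ACTB it was 9 instead of 3 against erastin and 8 instead of 4 against tubacin. Leaving out samples gave 3 to 4 against erastin (4777 to 5980 of all). CLOCK with E + T also lost the threshold with every probe set, loess, the reference genes, only the compared groups and the adjusted t-test (adjusted p 0.0509 to 0.203), and CRY2 against erastin with the adjusted t-test (0.0787). CRY1 against tubacin passed without dim genes (0.0318). Alternatives other than scaling to ACTB passed the interaction for CRY2, CLOCK, NPAS2, BMAL2, GSK3B, KLF10 and CSNK1A1. The causes were not tested.

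Over all genes, scaling to ACTB gave a count of 20409 instead of 6956 with E + T, 20188 instead of 5782 against erastin, 19226 instead of 6313 against tubacin and 9334 instead of 3369 in the interaction. Of these, 20348 (3129 as deposited), 20153 (2508), 19149 (2746) and 9313 (1389) were higher. With erastin 101 of 116 were higher under ACTB beside 882 of 1869, and with tubacin 10 of 12 beside 24 of 52. Scaling to the reference genes left 32 of 44 higher with tubacin and 864 of 2994 in the interaction. With erastin the count was 803 with only the compared groups, 773 at 0.01, 4217 and 635 by the t-test without and with adjustment, and 1065 to 1762 leaving out samples. With tubacin it was 52, and 0 to 2011 over the alternatives. At 0.01 the interaction passed 1808.

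Samples of the same replicate number did not deviate together: 0 of 18 pairs correlated over 0.1 (-0.06 to 0.05). With the replicate block 5 clock genes passed with E + T against control, PER2 being lost (adjusted p 0.0511), as were CSNK1D (0.0587) and the USP2 interaction (0.0788), while the NPAS2 interaction passed (0.0412).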
